A study of Macaca mulatta with 11 samples.

Results

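Interferon response genes are the genes that cells switch on after an interferon signal, and 36 of 37 listed genes of this kind could be read on arrays from rhesus monkey mesenchymal stem cells, stromal cells of bone marrow that attach and grow in culture. The genes were taken by name: a probe set belonged to the list when its platform gene symbol was, or included, a listed gene. This gave 52 of 22215 probe sets, 50 with 1 symbol and 2 shared with another gene (IFITM2 with IFITM1, and RNF31 with IRF9). STAT2, the remaining gene of the list, was not analysed here. Each gene was represented by its brightest probe set with 1 symbol over all arrays, as were the other genes of the arrays, 11963 in all.

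Type I interferons bind the receptor chains IFNAR1 and IFNAR2, whose kinases JAK1 and TYK2 activate STAT2. With IRF9 it forms part of a complex that switches on antiviral effectors such as the IFIT, MX and OAS proteins. Interferon gamma signals through IFNGR1, IFNGR2, JAK1 and JAK2, and raises guanylate-binding proteins, the chemokines CXCL10 and CXCL11 and the machinery that loads peptides on MHC class I. In human mesenchymal stem cells interferon gamma is known to raise MHC molecules and to strengthen their suppression of T cells.

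The comparison of interest was between donors of different ages. There were 4 arrays titled fetal, numbers 1 and 2 being of gestation day 120 donors and numbers 3 and 4 of newborn donors, 4 infant arrays (donors aged 6, 6, 3 and 5 months) and 3 adult arrays (donors aged 7, 7 and 8 years). All cells were grown in medium with fetal bovine serum, without any treatment named in the labels, and were collected at passage 2 before confluence. Marrow was flushed from long bones for the arrays titled fetal and aspirated for the others, so that collection method and that group cannot be told apart, and no label says whether arrays of 1 age came from separate animals, so that p-values measure the spread between these arrays.

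Median intensities lay between 164.9 and 169.7 on the 11 arrays. The number of arrays limits the precision. On the first principal component, with 23.05% of the variance, arrays 1 and 2 of both the adult and the infant group scored between -20.5 and -16.05 and the other arrays between 6.70 and 19.5. The brightest IGLC1 probe set, for an immunoglobulin light chain, read 12.82 and 13.23 on adult arrays 1 and 2 against 9.10 on adult array 3 and 7.82 to 8.30 on the remaining arrays, on the log2 scale. For that reason the comparisons with adults were also fitted without adult arrays 1 and 2, which leaves 1 adult array that is assumed to vary like the other groups.

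Interferon response genes were more often dim than genes in general, by their mean over the arrays of all ages. The mean log2 intensity over the 11 arrays was above the median of all values, 7.38, for 17 of 36 genes (47.2%), against 59.5% of all genes. It was above 8 for IFI16 and IRF9 alone, 5.56% of the 36 genes, against 29.4% of all genes. IFI16, a DNA-binding protein of the nucleus, read 10.33 in its brightest probe set but 7.24 and 6.98 in its others. The dimmest of them was among the 3 member probe sets with an unadjusted p under 0.05 between adult and fetal arrays, at a change of 0.32 (limma adjusted p = 0.527), while the brightest stood at 0.0049 (limma adjusted p = 0.997). The name of the brightest probe set ends in x_at, which marks probes that can match more than 1 transcript, so the level of 10.33 is uncertain. The probes were designed on human genes, so that a dim probe set can also reflect a poor match to the monkey transcript. That part was not tested, and levels were used here only to tell dim from bright probe sets.

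**Figure D1:**
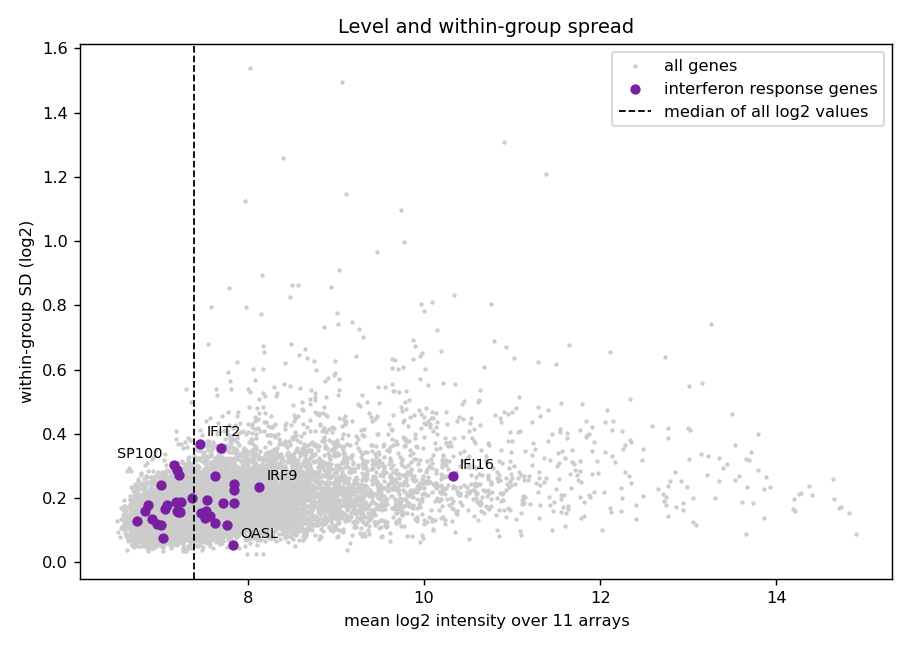
Each point is 1 gene, with its mean log2 intensity over the 11 arrays on the x axis and its residual SD about the 3 group means (log2) on the y axis. Grey points are all 11963 genes, purple points the 36 interferon response genes, and the dashed line is the median of all log2 values, 7.38. Most purple points lie near or left of that line, with 17 of 36 right of it and IFI16, at 10.33, far from the others.

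No interferon response gene passed the test between any age groups. At a limma adjusted p under 0.05 over all probe sets, 0 of 52 member probe sets were called between adult and fetal arrays, where 0.131% of all probe sets were called. The count was also 0 of 52 between adult and infant arrays (0.018% of all) and between infant and fetal arrays (0% of all). The F test for any difference among the 3 ages called 0 of 52 as well, with a smallest adjusted p of 0.541, where it called 0.036% of all probe sets. At an unadjusted p under 0.05, limma gave 3 member probe sets between adult and fetal arrays (5.77%, against 8.96% of all), 2 between adult and infant arrays (3.85%, against 6.19% of all) and 1 between infant and fetal arrays (1.92%, against 6.87% of all). The F test gave 2 at that level (3.85%, against 8.01% of all). Arrays of both groups did not overlap for 2 member probe sets between adult and fetal (3.85%, against 8.08% of all), 0 between adult and infant (4.98% of all) and 0 between infant and fetal arrays (3.34% of all).

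The arrays nevertheless set limits on how large an age difference could be. The 95% interval of each of the 36 genes, not adjusted for their number, lay within a log2 change of 1 in either direction, a 2-fold difference, in all 3 comparisons. It lay within 0.5 for 29 genes between adult and fetal, 26 between adult and infant and 30 between infant and fetal arrays. Of all 11963 genes, in the same order, 11679, 11793 and 11817 lay within 1, and 8922, 9274 and 9748 within 0.5. Such limits thus held for most genes of the arrays and are not particular to the 36. These intervals refer to the signal of the probe sets, and a weakly matching probe set understates a change in its transcript. The median change over the 36 genes was 0.02 between adult and fetal arrays, with 21 genes higher and 15 lower, beside 0.00034 over all genes. It was 0.0085 between adult and infant arrays, with 20 higher and 16 lower, beside 0.02 over all genes. Between infant and fetal arrays it was 0.04, with 25 higher and 11 lower, beside -0.02 over all genes. In that order the higher genes were 58.3%, 55.6% and 69.4% of the 36, against 50.1%, 54.7% and 45.4% of all genes. Without fetal array 1 the median change between adult and fetal arrays was 0.07, and without adult array 2 that between adult and infant arrays was -0.06. Without fetal array 1 that between infant and fetal arrays was 0.08, with 30 genes higher.

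**Figure D2:**
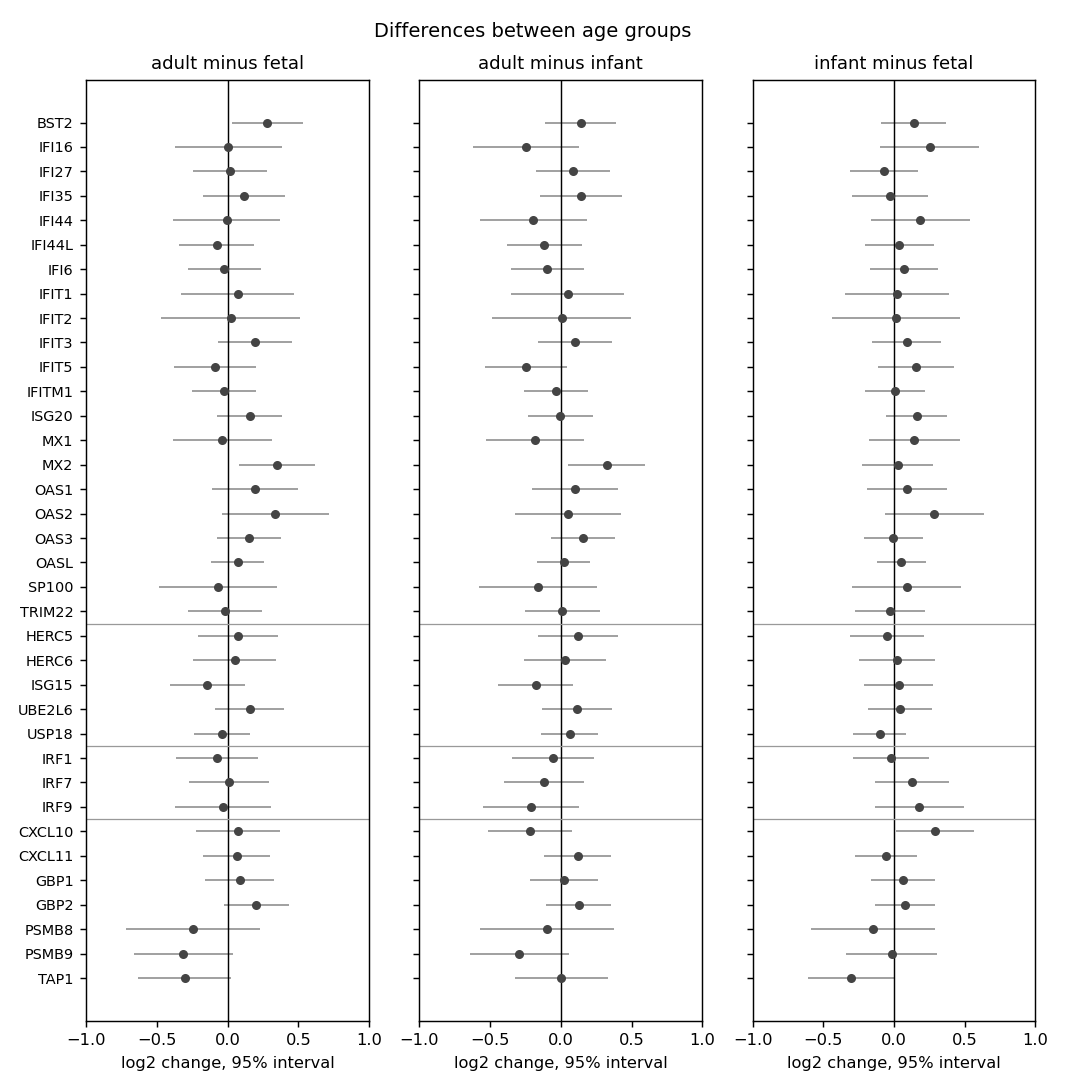
Points are log2 changes of the 36 genes in 3 comparisons (adult minus fetal, adult minus infant, infant minus fetal) and horizontal lines their unadjusted 95% intervals from limma, ordered by role. All intervals lie between -1 and 1, and most cross 0.

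Among the transcription factors, IRF9, the DNA-binding subunit of the complex with STAT2, read 8.30, 7.89, 7.94 and 8.16 on fetal arrays 1 to 4, 8.30, 8.69, 7.99 and 8.04 on infant arrays 1 to 4, and 7.93, 8.10 and 8.10 on adult arrays 1 to 3. Infant array 2 stood above all others, and the 3 age groups overlapped. The adult-minus-infant change was -0.21 (95% interval -0.55 to 0.13, limma adjusted p = 0.875). IRF7, which amplifies interferon production, was dim, with group means ± SD of 6.82 ± 0.14 for fetal (n = 4), 6.95 ± 0.24 for infant (n = 4) and 6.83 ± 0.10 for adult arrays (n = 3). IRF1, an early factor of the interferon gamma response, had group means ± SD of 7.87 ± 0.22 for fetal (n = 4), 7.86 ± 0.16 for infant (n = 4) and 7.80 ± 0.16 for adult arrays (n = 3), and differed by at most 0.07 in size between groups.

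The IFIT proteins bind viral RNA or translation factors. IFIT2 varied most within age groups of all 36 genes, with a within-group SD of 0.37 that was larger than for 96.8% of all probe sets. It read 7.67, 7.31, 7.53 and 7.26 on fetal, 7.60, 8.05, 6.94 and 7.24 on infant, and 7.18, 7.91 and 7.30 on adult arrays. Its values spread from lowest to highest within the infant group alone, and the adult-minus-fetal change was 0.02 (95% interval -0.47 to 0.51, limma adjusted p = 0.992). IFIT1, with a within-group SD of 0.29, read 7.45, 7.21, 7.02 and 6.98 on fetal, 7.03, 7.72, 7.13 and 6.88 on infant, and 7.13, 7.51 and 7.07 on adult arrays. In both genes the highest array of each age was the same, fetal array 1, infant array 2 and adult array 2. IFIT3 did not share this, with its highest value, 7.51, on infant array 4. IFIT5 stood highest on infant array 1, at 7.78 against at most 7.26 elsewhere, while its other probe set read 6.93 there. The adult-minus-infant change of IFIT5 was -0.25 (limma adjusted p = 0.819), -0.11 without infant array 1, and -0.06 in the other probe set.

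MX2, a GTPase that blocks nuclear entry of viruses such as HIV, had the smallest p of the list between adult and fetal arrays. It read 7.34, 7.14 and 7.43 on adult arrays, against 6.92, 6.73, 7.16 and 7.01 on fetal arrays and 7.00, 7.20, 6.89 and 6.83 on infant arrays. Adult array 2 lay just below the highest fetal and infant arrays, so that the groups overlapped. The adult-minus-fetal change was 0.35 (SE 0.13, limma adjusted p = 0.398). The adult-minus-infant change was 0.32 (limma adjusted p = 0.733). MX1, a related GTPase that blocks influenza viruses, had 6.97, 7.20 and 6.62 on adult arrays, and its adult-minus-fetal change was -0.04 (limma adjusted p = 0.974).

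BST2, or tetherin, which holds budding viruses at the cell surface, read 7.56, 7.88 and 7.74 on adult arrays, against 7.43, 7.43, 7.67 and 7.26 on fetal arrays. Fetal array 3 lay above adult array 1. The change was 0.28 (95% interval 0.03 to 0.53, limma adjusted p = 0.488). IFITM1, a membrane protein that blocks viral entry, was dim in its own probe set, at 6.99 ± 0.08 (SD, n = 3) in adult and 7.02 ± 0.03 (SD, n = 4) in fetal arrays. The probe set shared by IFITM2 and IFITM1 read 7.64, 7.38 and 7.20 on adult arrays, against 7.46, 7.96, 7.81 and 7.92 on infant arrays, a change of -0.38 (limma adjusted p = 0.703).

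The OAS enzymes make a short nucleotide signal that activates an RNA-cutting enzyme. OAS2 was higher in adult than in fetal arrays by 0.34 without passing (limma adjusted p = 0.617), at 7.32, 8.13 and 7.86 against 7.26, 7.50, 7.70 and 7.28. Adult array 1 lay within the fetal range. The other OAS2 probe set differed by 0.08. OAS2 also differed by 0.29 between infant and fetal arrays (limma adjusted p = 0.789). Without adult array 2 the adult-minus-fetal change of OAS2 was 0.16, and without adult array 1 it was 0.56. OAS1 differed by 0.19 between adult and fetal arrays (limma adjusted p = 0.757) but by -0.21 in its other probe set (limma adjusted p = 0.651), so that it had no settled direction. OAS3 differed by 0.15 (limma adjusted p = 0.728). The relative OASL, which boosts RNA sensing, had the smallest within-group SD of the list, 0.054. It was 1 of the 2 whose adult and fetal arrays did not overlap, at 7.85, 7.90 and 7.85 against 7.82, 7.83, 7.69 and 7.83. That difference was only 0.07 (limma adjusted p = 0.869), and 4 arrays held the same deposited value for this probe set. The other OASL probe set stood at -0.01.

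Several effectors stood apart on infant array 1. IFI44 read 7.95 there and 6.91 to 7.26 on the other arrays, SP100, a nuclear body protein, read 7.85 against 6.84 to 7.48, and IFI16 read 11.03 against 10.11 to 10.60. The other IFI16 probe sets read 7.22 and 6.92 there and were highest on infant array 2, at 7.57, and adult array 2, at 7.43. IFI44L, a relative of IFI44, also had its highest value there, 7.17. The remaining probe set of IFI44 was also highest among infant arrays on infant array 1, at 7.30, but below fetal array 1, at 7.61. Of the other probe sets of SP100, 1 was also highest on infant array 1, at 7.64, while the rest read 7.30, 6.75 and 6.78 there and were highest elsewhere.

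IFI27 and IFI6, small mitochondrial proteins, IFI35, TRIM22, an antiviral ubiquitin ligase, and ISG20, an RNA exonuclease, moved little. Their adult-minus-fetal changes lay between -0.02 and 0.16, with adjusted p of at least 0.728 in limma. ISG20 was higher by 0.16 both as adult minus fetal and as infant minus fetal, and its other probe set differed by -0.04 and 0.09.

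ISG15 is a small protein that is attached to other proteins like ubiquitin, with UBE2L6 as the conjugating enzyme, HERC5 as the main human ligase, HERC6 as its relative and USP18 as the enzyme that removes it and dampens the interferon receptor. ISG15 read 7.46, 7.41 and 7.34 on adult arrays, against 7.67, 7.56, 7.49 and 7.48 on fetal arrays. It was the other member probe set without overlap between adult and fetal arrays. The change was -0.14 (SE 0.12, limma adjusted p = 0.794), and infant arrays ran from 7.29 to 7.78 and spanned both groups. UBE2L6 differed the opposite way, by 0.16 as adult minus fetal (limma adjusted p = 0.754), at 7.53, 7.79 and 7.53 against 7.43, 7.31, 7.59 and 7.51. HERC5, HERC6 and USP18 differed by 0.07, 0.05 and -0.04 in that comparison.

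CXCL10, a chemokine that draws activated T cells, had the smallest p between infant and fetal arrays. It read 7.76, 8.12, 7.46 and 7.48 on infant arrays, against 7.35, 7.43, 7.42 and 7.46 on fetal arrays, and 7.45, 7.56 and 7.46 on adult arrays. Infant arrays 1 and 2 stood above every other array, whereas infant arrays 3 and 4 lay beside fetal array 4. The infant-minus-fetal change was 0.29 (95% interval 0.02 to 0.57, limma adjusted p = 0.700) and 0.15 without infant array 2. Its relative CXCL11 was dim and stood at the same deposited value on 6 arrays, and its adult-minus-infant change was 0.12, beside -0.20 in its other probe set. The guanylate-binding GTPases GBP1 and GBP2 were dim too, and GBP2 was higher by 0.20 in adult than in fetal arrays without passing (limma adjusted p = 0.626), at 6.91, 7.31 and 7.05 against 6.96, 6.92, 6.79 and 6.87, and by 0.09 without adult array 2.

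PSMB8 and PSMB9, catalytic subunits of the immunoproteasome, and TAP1, which carries peptides to MHC class I, were the members with the largest negative adult-minus-fetal changes. PSMB9 read 7.90, 7.54 and 7.42 on adult arrays, against 8.07, 7.85, 8.12 and 7.70 on fetal arrays, a change of -0.31 (SE 0.16, limma adjusted p = 0.617) that was -0.51 with adult array 3 as the lone adult (limma adjusted p = 0.497). Adult array 1 lay inside the fetal range. TAP1 read 7.82, 7.73 and 7.65 on adult arrays, against 8.07, 7.86, 7.81 and 8.41 on fetal arrays, a change of -0.30 (limma adjusted p = 0.605) that was -0.18 without fetal array 4. Its infant-minus-fetal change was also -0.30 (limma adjusted p = 0.725). PSMB8 rested on fetal array 1, which read 8.58 against 7.38, 7.63 and 7.66 on the other fetal and 7.53, 7.58 and 7.60 on adult arrays. Its change of -0.24 (limma adjusted p = 0.811) was 0.01 without that array.

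**Figure D3:**
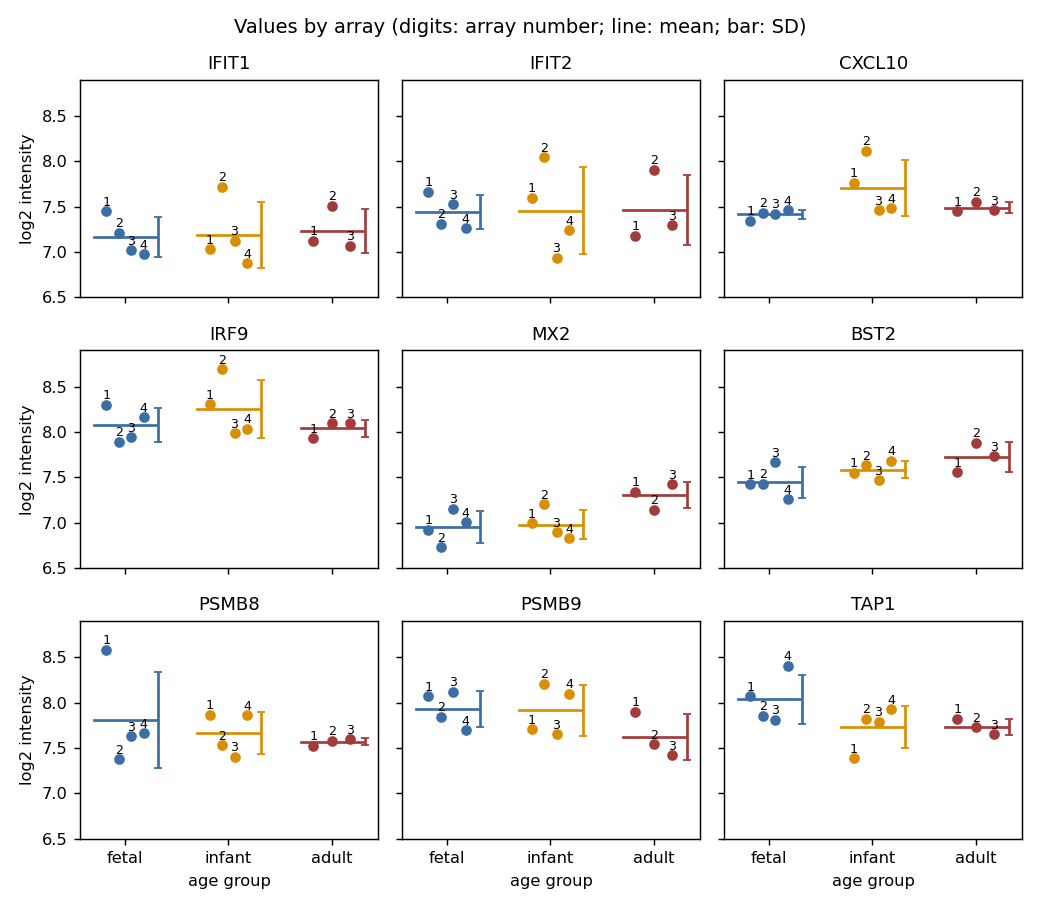
Log2 intensity of 9 genes by age group, with each array as a point labelled by its number, the group mean as a line and the SD as a bar (n = 4 fetal, 4 infant, 3 adult). IFIT1, IFIT2, CXCL10 and IRF9 are highest on infant array 2, MX2 and BST2 have the highest group mean in adults, and PSMB9 the lowest in adults, and single arrays stand apart in the other genes.

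The members moved together only weakly from array to array. Over all pairs of the 36 genes, the correlation of deviations from the group means averaged 0.063 across the 11 arrays, beside 0.0038 over all pairs of genes. This is a description across genes, which share arrays and normalisation. The average was 0.13 among the 7 chemokine, guanylate-binding and antigen-processing genes and 0.043 among the 21 effectors. It was -0.046 among the 5 ISG15 genes and -0.11 among the 3 transcription factors, which are few genes for an average. The 17 members above the median level averaged 0.12, and no matching value was computed for all genes above that level. Infant array 2 held the highest value of 8 members (22.2%, against 9.60% of all genes) and the lowest of none (9.34% of all genes). The 8 were CXCL10, HERC6, IFI6, IFIT1, IFIT2, IRF9, OASL and PSMB9. Fetal array 2 held the highest value of 0 members (6.14% of all genes) and the lowest of 6 (16.7%, against 5.12% of all genes). Infant array 1 and adult array 2 held the highest value of 6 members each (16.7%, against 10.6% and 11.9% of all genes). Infant array 4 held the highest value of 5 (13.9%, against 7.36% of all genes) and adult array 1 of none (8.43% of all genes). Infant array 1 also held the lowest value of 7 members (19.4%, against 16.8% of all genes), more than any other array.

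The mean deviation of the 36 genes from their own means was 0.03, -0.09, -0.01 and -0.04 on fetal arrays 1 to 4, 0.07, 0.09, -0.06 and -0.01 on infant arrays 1 to 4, and -0.05, 0.07 and -0.01 on adult arrays 1 to 3. All 3 ages thus had arrays above and below 0. Group means ± SD were -0.03 ± 0.05 (SD, n = 4) for fetal, 0.02 ± 0.07 (SD, n = 4) for infant and 0.01 ± 0.06 (SD, n = 3) for adult arrays. The within-group SD of single members had a median of 0.18, beside 0.17 over all genes. The arrays of highest mean deviation, infant arrays 1 and 2 and adult array 2, had negative scores on the first principal component. Adult array 1, with a mean deviation of -0.05, also had a negative score. Arrays with positive scores had mean deviations of at most 0.03. The part of that division in these values was not tested.

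**Figure D4:**
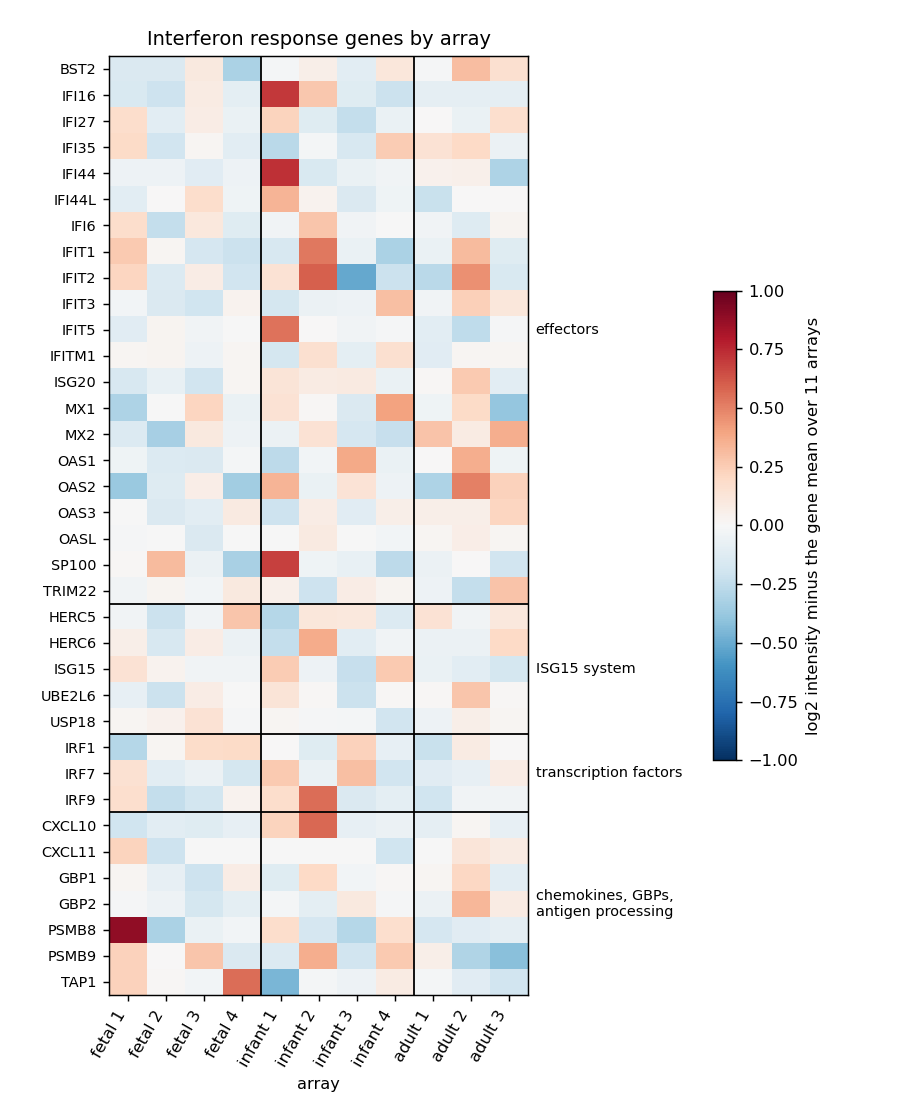
Rows are the 36 genes by role, columns the 11 arrays from fetal to adult, and colour is log2 intensity minus the gene's mean over the arrays (red above, blue below, limits -1 and 1). Dark cells fall on single arrays, such as PSMB8 on fetal array 1, IFI44, SP100 and IFI16 on infant array 1, and IFIT1, IFIT2, IRF9 and CXCL10 on infant array 2, and do not fill an age group.

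Many of these genes lie next to each other in the genome. In the rhesus RefSeq annotation (T2T-MMU8v2.0), 20 of the 37 listed genes fell in 8 runs in which neighbours were at most 3 protein-coding genes apart. The runs were GBP2 and GBP1, IFI44 and IFI44L, OAS1, OAS3 and OAS2, MX1 and MX2, PSMB9, TAP1 and PSMB8, CXCL11 and CXCL10, HERC6 and HERC5, and IFIT2, IFIT3, IFIT1 and IFIT5. In the run of PSMB9, TAP1 and PSMB8 all 3 adult-minus-fetal changes were negative, and in the OAS run all 3 were positive in the brightest probe sets, with OAS1 negative in its other probe set. In the MX run MX1 stood at -0.04 beside 0.35 for MX2. Of the 36 genes, 10 had more than 1 probe set of their own, and the sign of the change was the same in all of them for 5 of 10 genes between adult and fetal, 4 of 10 between adult and infant and 3 of 10 between infant and fetal arrays.

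Upstream genes did not pass either. Of 15 measured genes of interferon receptors and their signalling, STAT3 among them, 0 were called in any of the 3 comparisons. At an unadjusted p under 0.05 limma gave 0, 1 and 0 between adult and fetal, adult and infant, and infant and fetal arrays. The shares of all genes were 9.92%, 6.58% and 7.60%. TYK2, the kinase of IFNAR1, had the smallest F test p of them, with an adult-minus-infant change of 0.36 (limma adjusted p = 0.680), and STAT3 differed by 0.20 between adult and fetal arrays (limma adjusted p = 0.705). IFNAR1, the receptor chain, read 6.63 to 7.49 over all arrays and IFNGR2, of the interferon gamma receptor, 8.27 to 8.82. Of 14 interferon genes 0 were called, with 2, 1 and 0 at an unadjusted p under 0.05 in limma (14.3%, 7.14% and 0%). Arrays did not overlap for 3, 4 and 1 of them (21.4%, 28.6% and 7.14%, beside 8.50%, 5.07% and 3.39% of all genes), and alpha interferon genes are near copies of each other. IFNA1 read 7.00, 7.45 and 6.96 on adult arrays, against 6.81, 6.63, 6.63 and 6.75 on fetal arrays, without overlap, a change of 0.43 (limma adjusted p = 0.228). All its values but that of adult array 2 lay below the median of all values on the arrays. Of 18 genes of nucleic acid sensing and its signalling 0 were called. At an unadjusted p under 0.05 limma gave 1, 0 and 1 of them (5.56%, 0% and 5.56%). Among them RELA, a subunit of NF-kappaB, differed by 0.36 between adult and fetal arrays (limma adjusted p = 0.453), and RIGI, an RNA sensor, by 0.12 (limma adjusted p = 0.845).

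Other interferon-stimulated genes included bright ones. Of 32 measured, 0 were called, with 5, 7 and 1 at an unadjusted p under 0.05 in limma between adult and fetal, adult and infant, and infant and fetal arrays (15.6%, 21.9% and 3.13%, beside the 9.92%, 6.58% and 7.60% of all genes). The median changes were -0.06, -0.03 and 0.03. PARP12, an antiviral ADP-ribosyltransferase, came closest, at 7.22, 7.03 and 7.16 on adult arrays, against 8.24, 8.02, 7.93 and 7.49 on fetal arrays. All adult arrays lay below all fetal and infant arrays, whose infant values ran from 7.38 to 7.59. The adult-minus-fetal change was -0.78 (SE 0.14, limma adjusted p = 0.056). IFITM3 and IFITM2, which block viral entry and share much of their sequence, so that probes may not separate them, were bright. IFITM3 read 10.98, 10.74 and 10.61 on adult arrays, against 11.38, 11.67, 11.07 and 11.18 on infant arrays and 11.23, 11.35, 11.08 and 11.06 on fetal arrays. Its adult arrays lay below all others, with a change of -0.55 as adult minus infant (limma adjusted p = 0.465) and -0.40 as adult minus fetal (limma adjusted p = 0.405). CCL5, a chemokine, read 7.71, 7.36 and 7.39 on adult arrays, against 6.93 to 7.20 on the other 8 arrays, with adult-minus-infant and adult-minus-fetal changes of 0.42 and 0.33 (limma adjusted p = 0.465 and 0.347).

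MHC class I genes, which interferon gamma is known to raise, had adult-minus-fetal changes of up to 0.97, beside -0.31 to 0.35 for the 36 genes, though none passed. Of 13 measured class I and antigen-processing genes 0 were called, with 8, 1 and 3 at an unadjusted p under 0.05 in limma between adult and fetal, adult and infant, and infant and fetal arrays (61.5%, 7.69% and 23.1%, beside the 9.92%, 6.58% and 7.60% of all genes). HLA-C read 12.05, 12.18 and 12.20 on adult arrays, against 11.13, 11.01, 10.75 and 11.79 on fetal arrays, a change of 0.97 (limma adjusted p = 0.179). B2M, the light chain of all class I molecules, read 13.14, 13.13 and 12.94 on adult arrays, against 12.74, 12.20, 12.25 and 12.77 on fetal arrays, a change of 0.58 (limma adjusted p = 0.304). The adult arrays lay above all fetal arrays for both. HLA-B, HLA-E, HLA-F and HLA-G differed by 0.62 to 0.94 in the same direction (limma adjusted p from 0.246 to 0.440), and since class I genes are near copies of each other, human probe sets with these names may not tell the monkey genes apart. Infant arrays spread widely in these genes: the mean deviation of the 5 heavy chains and B2M, a grouping made after the values were seen, was 0.73 on infant array 4 and -0.45 on infant array 3. PSMB10, the third immunoproteasome subunit, PSME1, a proteasome activator, and the chaperone CALR had negative adult-minus-fetal changes of -0.35, -0.29 and -0.48, with adjusted p of 0.574, 0.716 and 0.487 in limma. Limma called 0 of 10 MHC class II genes, with 0, 1 and 1 at an unadjusted p under 0.05 (0%, 10% and 10%). It called 0 of 15 NF-kappaB targets, with 3, 2 and 0 at that level (20%, 13.3% and 0%). The shares of all genes were again 9.92%, 6.58% and 7.60%. PTX3, a soluble pattern recognition protein, read 7.61, 8.22 and 8.17 on adult arrays, against 8.45, 8.64, 9.43 and 9.38 on infant arrays, a change of -0.97 (limma adjusted p = 0.375). CCL2, a monocyte chemokine, differed by 0.63 in that comparison (limma adjusted p = 0.496) and by 0.68 as adult minus fetal (limma adjusted p = 0.212).

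**Figure D5:**
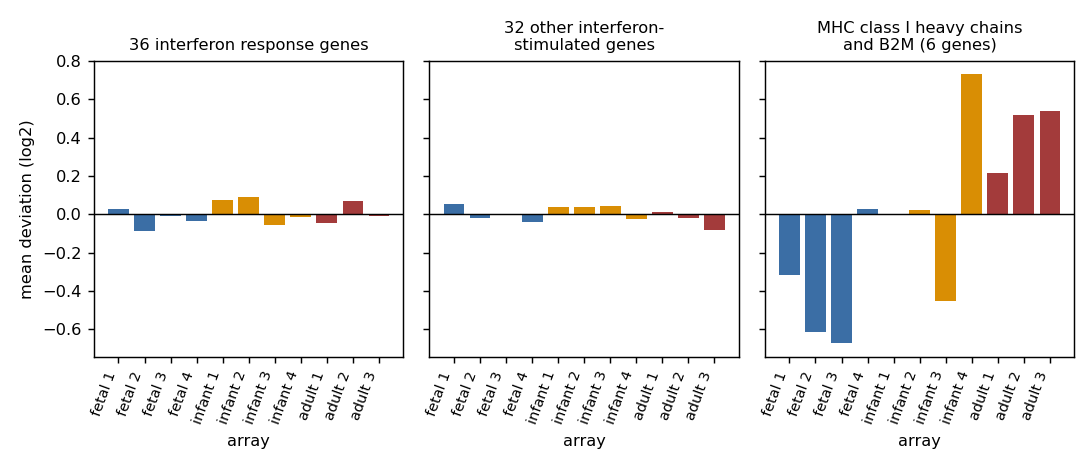
Bars give the mean deviation in log2 intensity from each gene's mean over the 11 arrays, for the 36 interferon response genes, 32 other interferon-stimulated genes and 6 MHC class I genes (5 heavy chains and B2M). The first 2 panels stay within 0.1 of 0 on every array, whereas the class I panel runs from -0.67 on fetal array 3 to 0.73 on infant array 4, with all 3 adult arrays above 0.

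Markers of other cells that could carry an interferon signal were given the same reading. The summed intensity of 12 measured macrophage and leukocyte markers was 2450 to 2969 in adult, 2267 to 2651 in infant and 2371 to 2635 in fetal arrays, and PTPRC read 7.14 to 7.93. That of 10 B and plasma cell markers was 2221 to 12023 in adult arrays, highest on adult array 2. It was 1689 to 1950 in infant and 1816 to 1912 in fetal arrays. IGLC1 was the brightest of these markers. Their adult-minus-fetal changes had a median of 0.08 and a largest value of 3.64, with 7 higher and 3 lower, so the sum does not show a rise of the whole list. The summed intensity of 10 T and NK cell markers was 1825 to 1909 in adult arrays. It was 1746 to 1839 in infant and 1696 to 1756 in fetal arrays, without overlap between adult and fetal. Of the 10 markers, 8 were higher in adult than in fetal arrays (80%, against 50.1% of all genes). Adult and fetal arrays did not overlap for 2 of the 10 (20%, against 8.50% of all genes). Sums without overlap were not particular to these markers. For 8 erythroid markers the sum was 1466 to 1536 in adult and 1390 to 1452 in fetal arrays. For the 14 interferon genes it was 2027 to 2122 in adult and 1847 to 1972 in fetal arrays. Sums of 7 endothelial markers overlapped, at 1279.3 to 1487 in adult and 1231.5 to 1280.8 in fetal arrays. The part of T and NK cells in the adult values was not tested. Plasmacytoid dendritic cell markers summed to 936.5 to 1154 in adult, 911.9 to 1186 in infant and 902.6 to 1017 in fetal arrays. Limma called 0 genes of these marker lists between ages. An unadjusted limma p under 0.05 was found for 9.92% of all genes in adult-minus-fetal, 6.58% in adult-minus-infant and 7.60% in infant-minus-fetal changes. In that order the B and plasma cell markers gave 4, 3 and 0 (40%, 30% and 0%). Plasmacytoid dendritic cell markers gave 2, 1 and 1 of 5 (40%, 20% and 20%). Macrophage and leukocyte markers gave 2, 1 and 2 (16.7%, 8.33% and 16.7%), and T and NK cell markers 1, 0 and 0 (10%, 0% and 0%). The part of the B and plasma cell signal in the adult values was not tested. With adult array 3 as the lone adult, the median change of the 36 genes was 0.02 as adult minus fetal and -0.02 as adult minus infant. With all adult arrays it was 0.02 and 0.0085. The fit with the lone adult assumes that this array varies like the other groups.

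Newborn donors (2 arrays) were also set against gestation day 120 donors (2 arrays), each stage having its own mean. Limma called 0 of 52 member probe sets (0% of all were called), with 1 at an unadjusted p under 0.05 (1.92%, against 1.81% of all), the probe set shared by RNF31 and IRF9, at -0.40. The arrays did not overlap for 15 member probe sets (28.8%, the same share as the 28.8% of all probe sets). The changes of the 36 genes ran from -0.35 for SP100 to 0.32 for IRF1, with a median of 0.01. The other SP100 probe sets stood at -0.15, -0.10, 0.10 and 0.24, so that SP100 had no settled direction.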

How the data were processed

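RNA of 11 rhesus cultures was hybridised to arrays with human probe sets, 1 array each. The deposited values are intensities on a linear scale, made by the authors with RMA (background correction, normalisation between arrays and summary per probe set) per the submitters' processing notes. The version and genome build are not given in the sources used here. Here log2 intensities of 22215 probe sets were fitted with limma 3.58.1 in R 4.3.3, with 1 mean per age group, moderated two-sided tests and Benjamini-Hochberg adjustment over all probe sets (threshold 0.05, no filter on dim probe sets). Another fit had 1 mean per stage. Gene symbols came from the platform annotation: 19065 probe sets had 1 symbol, 1043 several and 2107 none. The script was tested on simulated data.

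The members and gene lists were chosen with earlier results of these data known. Named genes were those of smallest p in each direction and comparison, of largest and smallest within-group SD, and of smallest F test p in each role and list. Replicate numbers are shared between ages. Deviations of same-numbered arrays from group means correlated at 0.145, 0.131 and 0.204 between adult and infant arrays. The other pairs of ages did not all exceed 0.1. Adult array 1 correlated best with infant array 2 and adult array 3 with infant array 4, so a pairing by number was not established. As an alternative, every comparison of ages was also fitted with the number as a block. Alternatives left out each array, and changed the normalisation, weights, moderation, filter and probe set rule. STAT2 was not analysed here, and promoter motifs were not searched.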

Additional observations from a re-analysis of the deposited data

Results flagged for a closer look

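Single arrays far from the rest of their age group were sought in the fetal and infant groups of 4 arrays with Dixon's test, and 8 of 72 gene and group pairs passed its 95% critical value, or 11.1%. Chance passes about 1 in 20 for values without ties, and 9.73% of such pairs passed over all genes. On infant array 1, IFIT5 was highest at 7.782 (next 7.236) and IFI44 at 7.947 (next 7.182). On infant array 2, IFI6 was highest at 7.742 (next 7.457) and TRIM22 lowest at 6.99 (next 7.23). CXCL11 was lowest on infant array 4, at 6.54, while the other infant arrays shared the value 6.735, which fixes the ratio at 1. On fetal array 3, OASL was lowest at 7.692 (next 7.824), IFITM1 at 6.967 (next 7.034) and IFI44 at 7.104 (next 7.161). All are log2 intensities of the representative probe set.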

How the results depend on the processing

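In all 48 combinations of comparison and setting, limma called 0 member probe sets, and the lowest adjusted p of a member was 0.187. The count over all probe sets moved more. Between adult and fetal arrays it was 29, and 4 to 153 when 1 array was left out (4 when it was fetal array 2 or either of adult arrays 1 and 2, 153 when it was adult array 3), 221 with the replicate block, 120 with array weights, 16 with arrays of these ages only and 44 without adult arrays 1 and 2 together, which leaves 1 adult array. Between adult and infant arrays it was 4, and 0 to 55 when 1 array was left out (0 without adult array 1 or infant array 3, 55 without adult array 3), 9 with the replicate block, 8 with an intensity trend and robust moderation, 10 with array weights, 2 with arrays of these ages only, 44 without adult arrays 1 and 2 and 39 with the division on the first principal component as a block, chosen after seeing the data. Between infant and fetal arrays it was 0, and 0 to 21 when 1 array was left out (4 without infant array 3, 21 without fetal array 4), 2 with the replicate block, and 1 with probe sets above the median level or with array weights. The block changed no call of a member. The median change of the 36 genes ran from -0.0039 to 0.066 between adult and fetal arrays and from -0.059 to 0.033 between adult and infant arrays and from 0.030 to 0.079 between infant and fetal arrays when 1 array was left out. Of 409 recomputed changes of named genes 4 turned sign. Some of the 409 could not differ from the main fit, namely those with other moderation, the level filter or arrays of the compared ages only. The named genes were also chosen for small p, so the count does not measure how stable the directions are. When 1 array was left out, PSMB8 ran from -0.390 to 0.0117 as adult minus fetal and from -0.292 to 0.109 as infant minus fetal, and CXCL11 from -0.125 to 0.0191 as infant minus fetal, each positive value being that without fetal array 1. Without adult arrays 1 and 2, IFIT5 stood at 0.0196 as adult minus fetal. The cause was not tested. Dim signal limits most members: 19 of 36 lay at or below the median of all values.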
